A study of Homo sapiens with 8 samples.

Results

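Cytosolic ribosomal protein genes were taken from an m6A peak list of U251 cells, an established human glioblastoma line, as the names that begin with RPL or RPS followed by A, a stalk number or a plain number with an optional A, X, L or L1. This pattern leaves out pseudogenes, the RPS6K kinases and the mitochondrial ribosomal genes. It selected 81 of 42272 peaks, which belong to 39 of 16701 gene names. The current RefSeq table holds 84 protein-coding genes of this pattern, so 39 of them (46.4%, 95% Wilson interval 36.2 to 57.0) had a peak. The same count over all protein-coding genes was 12256 of 20050 (61.1%).

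In MeRIP-seq, fragmented RNA is pulled down with an antibody to m6A, the methyl mark on adenosine, and peaks are stretches with more reads after the pull-down than in the input. The labels name 8 libraries of poly(A) RNA in 4 groups of 2. These groups are si-HNRNPC and si-NC at 48 h, which the labels do not call immunoprecipitates, and the inputs of si-HNRNPC and si-NC, where si-HNRNPC is a small interfering RNA against the m6A reader HNRNPC and si-NC its negative control. All are transfections of a single cell line, and nothing in the labels says whether the replicates were separate cultures. The peak list has one value per peak and none per library, so depth and replicate error are unknown, and it does not name the transfection. An effect of si-HNRNPC relative to si-NC could not be computed.

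Each ribosome is built from a small subunit, which reads the mRNA, and a large subunit, which joins the amino acids, and nearly every RPS or RPL gene supplies a single protein to them. Their mRNAs are short, very abundant and spliced from short exons. Most begin with a 5′ terminal oligopyrimidine (TOP) tract, a cytosine followed by an unbroken run of pyrimidines, through which growth signals act on their translation. Many of the genes carry small nucleolar RNAs (snoRNAs) in their introns, and most have left processed pseudogenes across the genome. m6A in mRNA is best known from long internal exons and from the region around the stop codon and the 3′-UTR.

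The start of the transcript is the sequence feature that most of the genes share and that the selection did not use. The windows shown are those of the genes whose RefSeq start carries the tract and lies inside one of their own peaks, of RPL26, whose peak begins just after the start, and of 3 genes without the tract at the annotated start. Each window runs from 10 bases before to 20 bases from the RefSeq start on the gene's strand (GRCh38.p14), and capitals mark the tract where the start is a C followed by at least 4 bases that are all C or T.
RPL24 (chr3:101686699-101686728, minus strand): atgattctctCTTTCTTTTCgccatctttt
RPL36 (chr19:5690285-5690314, plus strand): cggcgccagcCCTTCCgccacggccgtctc
RPL41 (chr12:56116623-56116652, plus strand): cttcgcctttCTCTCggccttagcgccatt
RPS10 (chr6:34426050-34426079, minus strand): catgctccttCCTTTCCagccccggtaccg
RPS13 (chr11:17077648-17077677, minus strand): ctctcgctctCCTTTCgttgcctgatcgcc
RPS14 (chr5:150449720-150449749, minus strand): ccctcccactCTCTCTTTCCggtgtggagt
RPL26 (chr17:8383174-8383203, minus strand): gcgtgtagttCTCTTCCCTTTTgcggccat
RPL4 (chr15:66504836-66504865, minus strand): cgggagtggtaagcacttccttttcctgtg
RPL7L1 (chr6:42879606-42879635, plus strand): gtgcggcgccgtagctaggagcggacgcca
RPS27L (chr15:63157458-63157487, minus strand): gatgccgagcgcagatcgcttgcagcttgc

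RefSeq start windows were found for 67 of the 84 genes, and 47 of these (70.1%) had the tract at one or more starts, against 5.14% of the 27305 genes in the table. The tract stood in 24 of 34 genes with a peak (70.6%) and in 23 of 33 without one (69.7%). It was thus common whether or not a gene had a peak. Among the paralogs with a window, RPL7L1 and RPS27L, which have a peak, lacked it, and of the 3 without a peak RPL22L1 had it and RPL10L and RPL26L1 lacked it. The search used only the gene's strand and only the annotated start, so the pyrimidine run a few bases inside the RPL4 window was not counted. If the list uses the build of the RefSeq table, an annotated start lay inside the span of a listed peak in 10 of the 34 genes. In RPL24, RPL36, RPL41, RPS10, RPS13 and RPS14 that start had the tract, and in RPL6, RPL7L1, RPL10 and RPL15 it did not.

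The genes without a peak outnumbered those with one in the small subunit and among the paralogs. A peak was listed for 22 of 43 large subunit genes (51.2%), 14 of 31 small subunit genes (45.2%), 3 of 7 paralogs ending in L or L1, and 0 of 3 genes of the acidic stalk, RPLP0, RPLP1 and RPLP2, which recruits the elongation factors. The Wilson intervals of the large subunit (36.8 to 65.4) and the small subunit (29.2 to 62.2) overlap widely. With an FDR under 0.001, 31 of the 84 genes kept a peak (36.9%, 27.4 to 47.6), against 50.8% of protein-coding genes. That left 20 large subunit genes, 9 small subunit genes and 2 paralogs.

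Other genes of the translation machinery had a peak more often in this list. Of 77 mitochondrial ribosomal protein genes, which are not TOP mRNAs as a group (tract in 6 of 69), 57 had a peak (74.0%, 63.3 to 82.5). Genes named EEF1, EEF2 or EIF plus a number, called translation factors here, had one in 49 of 69 (71.0%, 59.4 to 80.4). The name rule also takes in regulators of these factors, such as the EIF2AK kinases. A list of 24 other TOP transcripts had one in 18 (75%, 55.1 to 88.0). The last 2 lists share genes such as EEF2, which drives ribosome translocation. The share among cytosolic ribosomal protein genes lay below each of these in the plot of shares by gene list, and its interval overlaps only that of the other TOP transcripts. Median highest fold was 5.86 in the cytosolic genes, 4.05 in the mitochondrial ones, 5.71 in the factors and 7.18 in the other TOP transcripts. At the peak of lowest p of each gene it was 3.73 in the cytosolic genes, 3.77 in the mitochondrial ones and 3.33 in the factors. Input levels are absent from the list, so shares and folds are not matched on abundance, whose part in them was not tested.

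**Figure D1:**
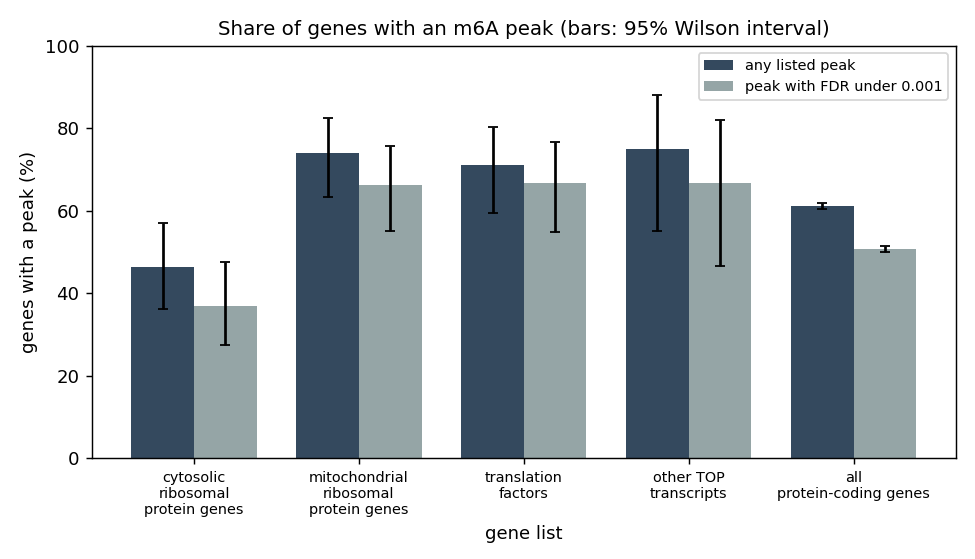
Percentage of genes with an m6A peak in the list (y axis) for 5 gene lists (x axis), with dark bars for any listed peak and grey bars for a peak with an FDR under 0.001. Error bars are 95% Wilson intervals and cover counting error only. The cytosolic ribosomal protein genes are lowest at 46.4% and 36.9%, against 61.1% and 50.8% of all protein-coding genes.

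Ribosomal protein genes known for more than their place in the ribosome had a peak in shares near the 46.4% of all 84 genes. Among 8 proteins that bind MDM2, the ubiquitin ligase of p53, when they are free of the ribosome, RPL26, RPS14 and RPS27A had a peak (37.5%). RPL5 and RPL11, which lead that response, had none. Of 18 genes mutated in Diamond-Blackfan anaemia, an inherited failure of red cell production, 8 had a peak (44.4%), and RPS19, the gene most often mutated there, had a single weak one of fold 2.04 (FDR above 0.001). The RefSeq table places a snoRNA inside 11 of the 39 genes with a peak and inside 18 of the 45 without. Median genomic length of the gene was 6742 bases with a peak and 4437 bases without, and the median number of pseudogenes named after the gene was 19 and 14. RPL21, with 137 such pseudogenes, had no peak. Reads shared with these copies cannot be traced in the list, which also holds 122 peaks under 92 ribosomal pseudogene names, so absence of a peak is uncertain for genes with many copies.

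Of the 81 peaks, 46 were annotated to the 3′-UTR (56.8%, 95% Wilson interval 45.9 to 67.0), against 50.5% of the peaks of all protein-coding genes and 44.1% of all peaks. The whole list includes noncoding genes, so protein-coding genes are the closer background. The 5′-UTR held 22 (27.2%, 18.7 to 37.7), against 27.7% in protein-coding genes. Exons outside the UTRs held 13 (16.0%, 9.63 to 25.5), against 21.8% in protein-coding genes. All 3 shares in protein-coding genes lay within the intervals of the ribosomal peaks. At an FDR under 0.001 the 3′-UTR held 35 of 54 ribosomal peaks (64.8%, 51.5 to 76.2), against 54.9% in protein-coding genes, again within the interval. Mitochondrial ribosomal protein genes had 61.3% of their peaks in the 3′-UTR (63.2% at that FDR). Of the 46 peaks in the 3′-UTR, 14 (30.4%) had their 3′ edge within 100 bases of the end of the transcript they were assigned to, against 20.04% in protein-coding genes and 46.2% in mitochondrial ribosomal protein genes. Of the 22 peaks in the 5′-UTR, 18 (81.8%) began at or before the start of theirs, against 80.9% in protein-coding genes.

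The median peak covered 270 bases of exon (quartiles 151 and 481), against 405 (211 and 778) over all peaks and 390 in protein-coding genes. The other lists had short peaks too, with a median of 271 bases in translation factors, 300 in the other TOP transcripts and 331 in mitochondrial ribosomal protein genes. A single exon block made up 62 of the 81 (76.5%), against 60.3% of all peaks. The shortest was 61 bases long, at the first bases of RPL7L1. The longest was the 5′-UTR peak of RPL22, with 15 blocks and 6145 bases spread over 15375 bases of chromosome 1, and it is described further on.

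Fold enrichment over input, given by the authors on a linear scale, ranged from 1.30 to 40.3 with a median of 3.73 (quartiles 2.33 and 6.54), against 5.45 (2.75 and 8.71) over all peaks. Taking each gene by its highest fold, the median over the 39 genes was 5.86 (95% interval of the median 3.58 to 7.40), against 8.03 in protein-coding genes and 8.31 over all gene names. With each gene taken at its peak of lowest p, it was 3.73, against 6.54 in protein-coding genes and 7.04 over all gene names. Of the 81 peaks, 11 reached at least 10-fold (13.6%), against 19.5% of all peaks, and 13 were under 2-fold (16.0%), against 13.1%. An FDR under 0.001 was reached by 54 (66.7%), against 62% of all peaks, and an FDR under 0.05 by 69 (85.2%), against 81.6%. The share under 0.001 was 64.7% in protein-coding genes, 70.8% in the other TOP transcripts, 75% in translation factors and 82.1% in mitochondrial ribosomal protein genes. Median fold over peaks was 4.87, 3.455, 3.055 and 3.26 in these lists, in the same order. The ribosomal share of low FDR was thus near that of protein-coding genes and below those of the lists most like it. Its median fold was below that of protein-coding genes only.

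The large subunit carried the higher folds, without a test. Over peaks the median fold was 3.71 in the large subunit and 2.92 in the small subunit. Median highest fold was 6.48 in its 22 genes (quartiles 3.82 and 13.1) and 2.36 in the 14 small subunit genes (1.90 and 6.37). No small subunit peak reached 10-fold, with 8.17 as the highest of 24, whereas 8 of 49 large subunit peaks did. Of those 8, 6 lay partly or wholly beyond the RefSeq gene. Those of RPL38, RPL3 and RPL22 and the highest of RPL31 also lay at the upper border of fold described further on. Large subunit genes had more peaks to take a highest fold from, at 2.23 per gene against 1.71. The plot of fold by gene shows both sets with their regions.

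**Figure D2:**
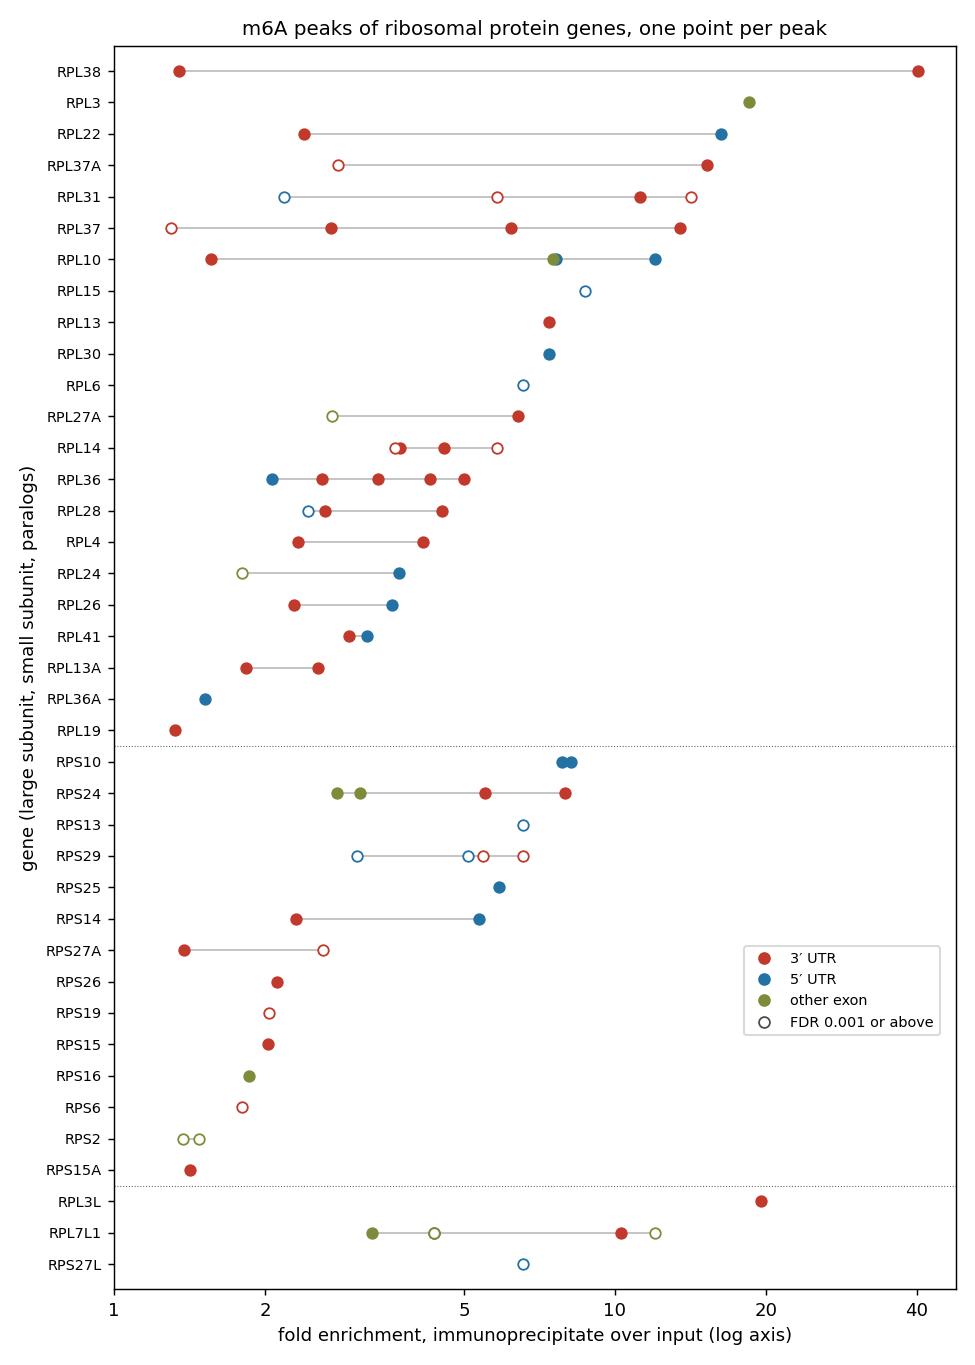
Fold enrichment over input on a log axis (x axis) for each of the 81 peaks, by gene (y axis), with large subunit genes at the top, then small subunit genes and paralogs. Colour gives the region, open points have an FDR of 0.001 or above, and grey lines join the peaks of a gene. Small subunit peaks end at 8.17, and RPL38 spans from 1.35 to 40.3.

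Peaks with extremely low p had modest folds. Of the 81 ribosomal peaks, 18 had a log10 p at or below -100 (22.2%), against 13.8% of all peaks, and their median fold was 3.15, against 7.70 for all peaks with such a p. The FDR was listed as 0 for 10 peaks (12.3%, against 4.76% of all peaks), which were the leading peaks of RPL41, RPL13, RPL26, RPL36, RPL4 and RPL7L1 and pairs of peaks in RPL13A and RPS24. Between a log10 p of -10 and -100 the median was 4.28 for the ribosomal peaks and 4.83 for all, and above -10 it was 4.36 for the ribosomal peaks and 4.90 for all. Over peaks, the rank correlation of fold with -log10 p was -0.03 in the ribosomal peaks (n = 81) and 0.18 in the whole list (n = 42272). Peaks of a gene share its input, so these values are descriptions.

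**Figure D3:**
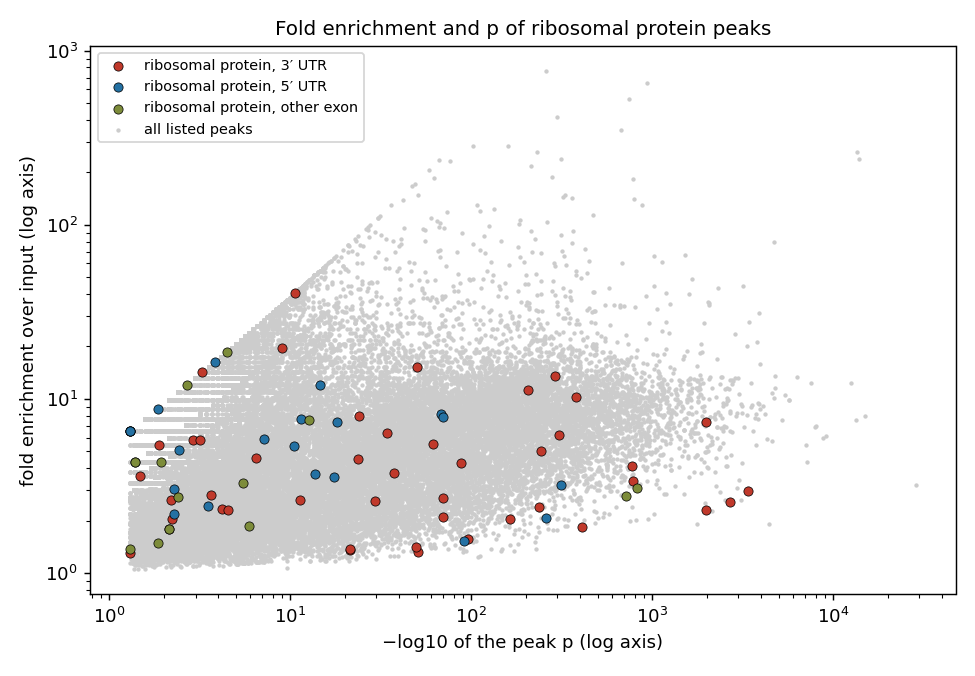
Fold enrichment over input (y axis, log) against the -log10 of the authors' peak p (x axis, log) for the 81 ribosomal protein peaks, coloured by region, and for all 42272 listed peaks in grey. At a log10 p of -100 or below, the ribosomal peaks lie low in the grey cloud, with a median of 3.15 against 7.70 for all peaks. The straight upper border is the highest fold listed at each p.

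RPL41, which encodes the smallest ribosomal protein, had the lowest p. Its 3′-UTR peak (chromosome 12, 56117129 to 56117817) covered 419 bases in 2 blocks at 2.95-fold, with a log10 p of -3380. A second peak from 56116590 to 56117039 began at the first base of the assigned transcript and was labelled 5′-UTR, with a fold of 3.20 (log10 p of -314). The start with the tract shown above lies in this peak, if the builds are the same.

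RPL13A, a large subunit protein that also forms part of the GAIT complex, which represses translation of inflammatory mRNAs, had 2.55-fold in a 3′-UTR peak of 750 bases (chromosome 19, 49491378 to 49492308, log10 p of -2710). Its second peak, from 49490778 to 49491258, had a fold of 1.83 and overlaps the snoRNA genes SNORD34 and SNORD35A in the RefSeq table. RPL13 had a single 3′-UTR peak of 600 bases (chromosome 16, 89562864 to 89563463) at 7.40-fold with a log10 p of -1980. Of the 4 genes with the lowest p, RPL13 had the highest fold.

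RPL26, which also binds the 5′-UTR of p53 mRNA, had the same log10 p of -1980 at a fold of 2.29, in a 3′-UTR peak of 2 blocks and 329 bases (chromosome 17, 8377546 to 8379294). Its 5′-UTR peak, from 8382915 to 8383183, began just after the TOP start shown above and had a fold of 3.58 (log10 p of -17.5). RPL4 had 4.14-fold in its main 3′-UTR peak of 480 bases (chromosome 15, 66499125 to 66499604, log10 p of -776), and a second peak of 2.33-fold.

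RPS24, the small subunit gene with the lowest p and mutated in some families with Diamond-Blackfan anaemia, had 4 peaks on chromosome 10, all with an FDR under 0.001. The first, from 78035563 to 78035893, had a fold of 3.09 (log10 p of -821), and the second, from 78036493 to 78037426, one of 2.78 (log10 p of -716). Both were labelled as exons outside the UTRs. The 2 peaks of the 3′-UTR lay downstream, from 78049079 to 78055553 at 5.50-fold and from 78056453 to 78056813 at 7.93-fold. Fold thus was higher toward the 3′ end, where the p was weaker (log10 p of -61.8 and -24.1). RPS24 is spliced into several isoforms that differ in their last exons, and the list does not divide input between them.

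RPL37 varied in fold within its 3′-UTR label. On chromosome 5 it had 13.5-fold in a spliced peak of 290 bases from 40827703 to 40831363 (log10 p of -292) and 6.20-fold from 40827572 to 40828112 (log10 p of -305). These peaks share bases, so they are not separate measurements. Another, from 40825352 to 40825892, had a fold of 2.71, and the last, from 40829461 to 40829551, one of 1.30 at the limit of the list (p of 0.05).

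RPL31 had 4 peaks on chromosome 2. The one with the lowest p, from 101007617 to 101011275, covered 991 bases in 3 blocks at 11.2-fold (log10 p of -205), and TBC1D8, on the opposite strand, overlaps it in the RefSeq table. The 3 others had an FDR of 0.001 or above. They lay from 101002529 to 101002649 at 2.18-fold, from 101004477 to 101004687 at 5.81-fold and from 101023672 to 101023912 at 14.2-fold. RPL31 thus kept an 11.2-fold peak with a low p even without its highest value.

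RPL36 had 5 peaks on chromosome 19, more than any other gene but RPL7L1, and all passed an FDR of 0.001. The peaks over the gene itself ran from 5690262 to 5690830 at 2.07-fold in the 5′-UTR (log10 p of -260) and from 5691278 to 5691875 at 3.36-fold in the 3′-UTR (log10 p of -784). A spliced peak that starts inside the 3.36-fold one and runs to 5693368 had 4.99-fold, and LONP1 lies on the opposite strand of both. The other 2, from 5678421 to 5678598 at 2.60-fold and from 5687835 to 5688433 at 4.28-fold, lie upstream of the RefSeq gene, over MICOS13 and HSD11B1L. They were labelled 3′-UTR, and the transcript they were assigned to starts further upstream.

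RPL14, a large subunit gene, had 4 peaks on chromosome 3, all labelled 3′-UTR and close to each other in fold. The values were 3.73 from 40465083 to 40465772, 5.81 from 40465982 to 40466071, 4.56 from 40467149 to 40467449 and 3.63 from 40468317 to 40468557. The first had the lowest p (log10 p of -37.4), and those at 5.81-fold and 3.63-fold had an FDR of 0.001 or above. RPL28 had 3 peaks on chromosome 19, of 2.44-fold in the 5′-UTR from 55386171 to 55386291, 2.64-fold in the 3′-UTR from 55388577 to 55388906 and 4.51-fold in the 3′-UTR from 55391450 to 55392049.

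RPL10, in which mutations affect neurodevelopment and occur in T-cell leukaemia, differed between its ends. At its 3′-UTR, on chromosome X from 154400729 to 154400938, the fold was 1.56 (log10 p of -95.9). Around its 5′ end it had 12-fold from 154397594 to 154398250 and 7.63-fold from 154397791 to 154398260, which share bases, and 7.52-fold from 154397087 to 154397444. The last lies upstream of the RefSeq gene, and the exon it names belongs to AC245140, a gene listed on the opposite strand. The 3 peaks with the higher folds thus lay at the 5′ end or upstream of it, where the RefSeq table also has LOC124905228 on the opposite strand. Those at 12-fold and 7.63-fold lay only partly inside the RefSeq gene. If the builds are the same, all 3 ended upstream of the RPL10 start that has the tract.

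RPS29, a small zinc-binding protein of the small subunit, had 4 peaks on chromosome 14, all with an FDR of 0.001 or above. Its folds were 5.45 from 49575234 to 49575384 and 6.54 from 49576311 to 49576401 in the 3′-UTR, and 5.08 from 49598216 to 49598453 and 3.05 from 49598540 to 49598690 in the 5′-UTR. The 3.05-fold peak shares bases with a peak of LRR1 on the opposite strand, and no other ribosomal peak shares bases with a peak of another gene.

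The paralogs differ from the standard genes in expression and use. RPL3L replaces RPL3 in heart and skeletal muscle, and its single peak, 660 bases of the 3′-UTR (chromosome 16, 1943974 to 1944633), had 19.6-fold (log10 p of -8.96). LOC124903625, on the opposite strand, overlaps this peak in the RefSeq table. RPL7L1, a factor of ribosome assembly related to RPL7, had the most peaks of all members, 6 on chromosome 6. Its 3′-UTR peak from 42886274 to 42888638 covered 2365 bases in a single block at 10.3-fold (log10 p of -380), the longest single-block peak of the set. From 42881778 to 42882107 it had 12-fold but with a p of 0.002, and from 42879945 to 42880970 it had 3.27-fold. The remaining 3, from 42879616 to 42879676, from 42882376 to 42882496 and from 42882825 to 42882915, were each at 4.36-fold. RPS27L, a p53 target related to RPS27, had a peak of 6.54-fold with a p of 0.049.

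Of the 11 peaks of at least 10-fold, 6 (54.5%) lay partly or wholly beyond the RefSeq gene, against 24.7% of the 6956 name-matched peaks of that fold. Compared with the RefSeq gene of the same name, 59 of the 81 peaks lay wholly inside (72.8%), 12 partly (14.8%) and 10 did not overlap it (12.3%), against 81.9%, 12.5% and 5.59% of the 37720 peaks with a name match. Median fold was 3.09 inside, 7.09 partly inside and 7.45 without overlap, against 4.79, 6.54 and 6.54 over all matched peaks. The 5 peaks of at least 10-fold wholly inside belong to the paralogs RPL7L1 (2 peaks) and RPL3L and to RPL31 and RPL37. Of the 10 peaks without overlap, 7 lay upstream and 3 downstream of the gene.

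**Figure D4:**
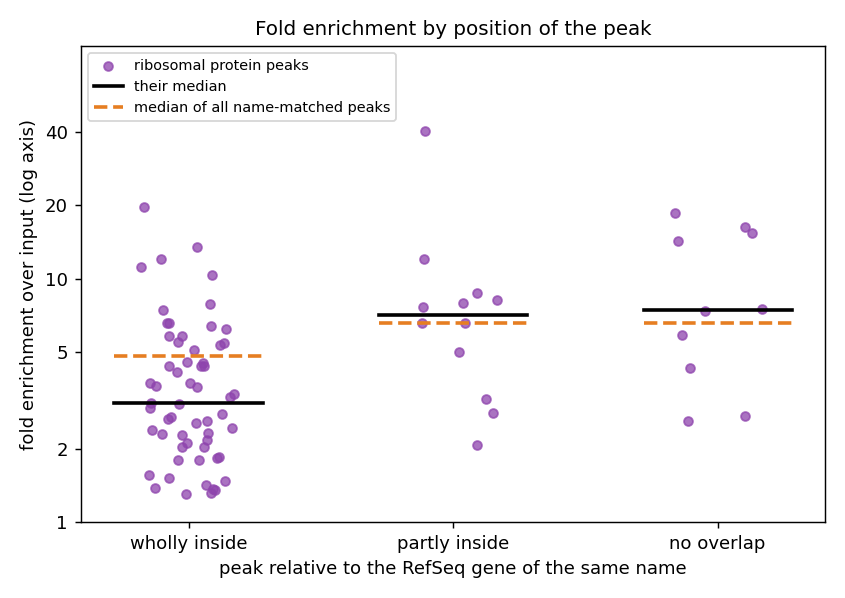
Fold enrichment over input on a log axis (y axis) of the 81 ribosomal protein peaks that lie wholly inside, partly inside or outside the RefSeq gene of the same name (x axis). Black lines are their medians (3.09, 7.09 and 7.45) and dashed lines the medians of all name-matched peaks (4.79, 6.54 and 6.54).

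RPL38, a large subunit protein linked in mice to the translation of Hox mRNAs, showed the widest spread. Its peak of 40.3-fold, on chromosome 17 from 74210605 to 74212508, lies partly beyond the RefSeq gene and over MGC16275, a noncoding gene on the opposite strand (log10 p of -10.7). The peak inside the gene, from 74206244 to 74209356, had 1.35-fold with a lower p (log10 p of -21.5). RPL37A had 15.3-fold in a peak of 600 bases in 2 blocks that lies downstream of the RefSeq gene (chromosome 2, 216529248 to 216579180, log10 p of -50.5). Its other peak, from 216504040 to 216529098, overlaps the gene in part, at 2.80-fold. Neither peak of RPL37A lay wholly inside the gene, and there the higher fold had the lower p.

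RPL22, a large subunit protein that binds RNA outside the ribosome too, had 2.39-fold in a 3′-UTR peak of 539 bases (chromosome 1, 6186246 to 6186784, log10 p of -236). Its 5′-UTR peak, from 6205475 to 6220849, had 16.3-fold but a log10 p of -3.86, and lies upstream of the RefSeq gene, where RNF207 runs on the opposite strand. RPL3, which shapes the peptidyl transferase centre, had a single peak of 18.5-fold (log10 p of -4.45) on chromosome 22 from 39319909 to 39320389, just upstream of the RefSeq start. RPL30 at 7.38-fold and RPS25 at 5.86-fold likewise had a single peak, upstream of the RefSeq start. RPL27A had 6.41-fold in its 3′-UTR, and a second peak of 2.72-fold whose named exon belongs to DENND2B on the opposite strand.

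At a given p the list has an upper border of fold. It was read only at log10 p values listed for at least 20 peaks. There, 10 ribosomal peaks (12.3% of all 81, against 17.9% of all peaks) lay within 1% of the highest fold for their log10 p. Peaks with a rarer log10 p could not be counted at the border. The 10 counted at the border included the peaks named above at 40.3-fold in RPL38, 18.5 in RPL3, 16.3 in RPL22, 14.2 in RPL31 and 12 in RPL7L1. The others were RPL15 at 8.71-fold and RPL6, RPS13, RPS27L and 1 peak of RPS29, all at 6.54-fold. The pair of 6.54-fold and a log10 p of -1.31 alone was listed for 1502 peaks. Without the peaks at the border, the median highest fold was 4.33 over 34 ribosomal genes and 6.93 over 14223 gene names, and RPL3, RPL6, RPL15, RPS13 and RPS27L had no peak left. Read depth per peak is not in the list.

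The 5 genes with the lowest highest fold had 1 or 2 short peaks each. RPL19 had 1.32-fold in the last 150 bases of its assigned transcript (chromosome 17, 39204583 to 39204732), with a log10 p of -51.2. RPS15A had 1.42-fold in a 3′-UTR peak on chromosome 16 from 18782972 to 18783182 (log10 p of -49.6), and RPL36A 1.52-fold in a 5′-UTR peak on chromosome X from 101391726 to 101391994 (log10 p of -91.3), where the readthrough RPL36A-HNRNPH2 overlaps it. RPS2 had 2 exon peaks that share bases, of 1.37-fold from 1963774 to 1963949 and 1.48-fold from 1963856 to 1963946 on chromosome 16, with p values of 0.05 and 0.013. RPS6, the substrate of the S6 kinases, had 1.80-fold in a 3′-UTR peak on chromosome 9 from 19376044 to 19376194 (p of 0.0074). RPL19, RPS15A and RPL36A thus combined a low p with a fold under 2.

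The remaining genes lay between. In the small subunit, RPS10 reached 8.17-fold and 7.83-fold in 2 peaks of its 5′-UTR that share bases, at the TOP start shown above. The readthrough RPS10-NUDT3 overlaps both in the RefSeq table, and the 8.17-fold peak lies only partly inside the RefSeq gene of RPS10. RPS14 had 5.34-fold at its TOP start and 2.31-fold in its 3′-UTR. RPS26 had 2.11-fold, RPS15 2.03-fold and RPS16 1.86-fold. RPS27A, made as a fusion with ubiquitin, had 2.61-fold and 1.38-fold in its 3′-UTR. In the large subunit, RPL24 had 3.71-fold at its TOP start and 1.80-fold in an exon close by.

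Ribosomal proteins whose names fall outside the pattern gave mixed values. RACK1, a scaffold on the small subunit, had 5 peaks, the highest at 8.40-fold. FAU, from which RPS30 is made, had 1 of 2.06-fold. RPL36AL, a copy of RPL36A, had 8.56-fold over 529 bases with a log10 p of -2710. The readthrough RPS10-NUDT3 had 2 peaks, of 1.97-fold and 1.99-fold. The glioblastoma and glial markers checked, SOX2, NES, VIM, GFAP, CD44, EGFR, S100B and OLIG2, all had a peak, as did 6 of 10 markers of leukocytes, epithelium and endothelium. A peak is no level, so this does not test the cell type.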

How the data were processed

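The deposited table holds m6A peaks of siRNA-transfected U251 cells, 42272 peaks in 24 columns. Reads were handled with fastp and HISAT2 per the labels, which name these tools in the submitters' processing notes. The authors' peak caller, genome build and scaling remain unknown (not given in the sources used here). Fold enrichment is a linear ratio made by the authors. The p-value of each peak, every one at or below 0.05, is deposited as well. The log10 p and log10 FDR are deposited scores.

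The members and lists were chosen with earlier results of these data known. Peaks were counted by gene and region, spans summed over exon blocks, and folds summarised as medians, with 95% Wilson intervals for shares. No test was made, since the table holds no value per library. Intervals cover counting error only. RefSeq (GRCh38.p14) gave the gene universe, neighbours and start windows. Of 37720 name-matched peaks, 99.5% had an assigned transcript that overlaps the RefSeq gene, and 50.3% a transcript that shares an end with it. Genes named in full were the 10 of lowest p, 5 of highest and 5 of lowest fold, and any with 3 or more peaks. A peak's strand is that of its assigned transcript. Counting was tested on simulated data. Python 3.11.15, pandas 2.3.3, NumPy 2.4.6, SciPy 1.17.1, statsmodels 0.14.6 and matplotlib 3.10.9 were used.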

Additional observations from a re-analysis of the deposited data

How the results depend on the processing

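No paired analysis was possible because single libraries have no column in the table, which also means that none could be left out. The count of 39 genes with a peak ranged from 31 (FDR under 0.001) to 47 (any peak overlapping the gene, whatever its name). The 8 genes that this last rule added had only peaks named after other genes. In RPL32, RPL35A, RPS23 and RPS4X these lay on the opposite strand (CAND2, IQCG, ATG10 and PIN4). The 47 is thus not a count of genes with a peak of their own. The median highest fold of 5.86 ranged from 3.73 (fold of the peak with the lowest p, 7.04 over all gene names) to 5.86 (without peaks shared with another gene). It was 4.295 with the median over peaks (5.99 over all gene names) and 5.34 at an FDR under 0.001 (8.17). Each lay within the 95% interval of the main median, 3.58 to 7.40, and region shares stayed within their Wilson intervals. The median span of 270 bases was 390 at an FDR under 0.001 and 330 as genomic width, and the causes were not tested. Settings added after the data were seen were an FDR under 0.05, dropping peaks outside the RefSeq gene (4.75), at the upper border of fold (4.33) or with a common pair of fold and p (4.99), and counting shared bases on either strand.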
